A study of Rattus norvegicus with 23 samples.

Results

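The net change over 36 h of differentiation on a soft substrate was read from the 3 soft libraries of 36 h and the 3 soft libraries of 0 h, which are 6 of the 23 libraries of the series and were chosen by the substrate and time in their titles. All of them came from wild-type neural stem cells of the hippocampus of adult female rats. The labels give 1 medium for every library, those of 0 h included: DMEM-F12 with N2, 1 uM retinoic acid and 1% FBS, called a mixed differentiation medium. By the labels the groups differ in time alone. The sources used here do not give what was done to the cells before 0 h or the stiffness of the substrate in units of pressure. For comparison, the same interval was read in 3 stiff libraries of 36 h and 3 of 0 h, and the soft libraries of 12 h (2) and 24 h (3) were used to follow the course. Libraries of a group are numbered Rd1 to Rd3. Nothing in the labels says that the numbers stand for separate cultures or animals. The p-values therefore describe the spread among libraries, which may be technical.

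Neural stem cells of the adult hippocampus divide to renew themselves and can leave the cycle to become neurons or glia. Retinoic acid acts through nuclear receptors that bind DNA and switch genes directly, and serum carries growth factors and is known to favour glial differentiation. A change of fate in such cultures is known to involve both the loss of transcripts of dividing cells and the gain of transcripts of the new cell types. Which of these programmes each gene belongs to cannot be told here, because the files give Ensembl rat identifiers without gene names and 0 of 32883 identifiers matched the reference table used. The cells could not be checked against markers of their type for the same reason, and genes are described as groups, with 4 identifiers named.

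The soft libraries of 36 h held 3372308, 6358462 and 2573665 counts (Rd1 to Rd3) and those of 0 h held 5112715, 6230805 and 4145040. The later libraries were shallower on average, by a ratio of 0.794, which the spread between libraries does not separate from equality (exact permutation test, two-sided p = 0.5). Drawn down to 2573665 counts each, the libraries of 36 h contained 13353 ± 89.4 genes with at least 1 count and those of 0 h 13152 ± 89.7 (SD, n = 3 each). The 2 groups did not overlap in this number, and p = 0.1 is the smallest value that an exact permutation test of 3 against 3 can give. Libraries of the same time lay close together: the root mean square difference in log2 level over the 11857 tested genes was 0.445 to 0.536 between libraries of 36 h and 0.422 to 0.492 between libraries of 0 h. Between the times it was 1.03 to 1.12, so every cross-time pair was farther apart than any pair of the same time.

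More than every second tested gene differed between 36 h and 0 h on soft. With edgeR's quasi-likelihood test and a Benjamini-Hochberg adjusted p under 0.05, 6426 of 11857 genes were called, or 54.2%. Of these, 3316 genes (28% of those tested) were higher at 36 h and are called risen, and 3110 (26.2%) were lower and are called fallen. The median log2 fold change was 0.883 in the risen genes and -0.798 in the fallen genes, against 0.0246 over all tested genes, and these medians are of genes chosen by the same test. The libraries of 36 h lay wholly above those of 0 h in 3581 genes (30.2%) and wholly below them in 3420 (28.8%), with or without a call. In bulk libraries, a change in the number of cells of a type and a change in RNA per cell cannot be told apart, and levels are relative to the library total.

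ENSRNOG00000013794 was the risen gene with the smallest p. It stood at 1510, 1570 and 1400 CPM (counts of the gene per unit of the TMM-scaled library total, the usual CPM scale) in the libraries of 36 h, against 17, 23.2 and 20.8 CPM in those of 0 h. All 3 libraries of 36 h were far above all 3 of 0 h, and the spread within each time was small beside the gap. The rise was 73-fold, a log2 fold change of 6.19 with an SE of 0.127 (adjusted p = 6.89e-27 by edgeR). By mean level it ranked 43 among the tested genes at 36 h, against 6584 at 0 h. It had already reached 808 ± 51.5 CPM at 12 h (SD, n = 2) and 1450 ± 56.6 CPM at 24 h (SD, n = 3), after which its level at 36 h, 1490 ± 86.5 CPM, differed by less than the spread between libraries.

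ENSRNOG00000015736, the second risen gene by p, was close to its limit of detection at 0 h and well expressed at 36 h. It had 291, 290 and 292 CPM at 36 h, against 0.392, 0.812 and 0.966 CPM at 0 h, where these values stand for 2, 5 and 4 counts. The fold change was 394 (log2 fold change 8.62, SE 0.414, edgeR adjusted p = 2.65e-26), and its size rests on those 11 counts at 0 h against 3645 at 36 h. At 12 h the gene was at 150 ± 25.6 CPM (SD, n = 2) and at 24 h at 233 ± 17.9 CPM (SD, n = 3), and the libraries of successive times did not overlap.

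ENSRNOG00000001514 was the fallen gene with the smallest p. It was at 25.4, 28.8 and 31.3 CPM in the libraries of 36 h, against 199, 209 and 209 CPM in those of 0 h, with no overlap. It was 7.22-fold lower at 36 h (log2 fold change -2.85, SE 0.126, edgeR adjusted p = 6.07e-19). Its levels at 12 h, 99.1 ± 14.9 CPM (SD, n = 2), and at 24 h, 37.9 ± 4.23 CPM (SD, n = 3), were lower in every step, with no overlap between the libraries of successive times.

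ENSRNOG00000004110, the second fallen gene by p, was at 62.3, 68.3 and 70.6 CPM at 36 h, against 435, 360 and 374 CPM at 0 h. The groups did not overlap, and the level was 5.81-fold lower at 36 h (log2 fold change -2.54, SE 0.11, edgeR adjusted p = 8.25e-19). Most of this fall came early, to 141 ± 26.7 CPM at 12 h (SD, n = 2). The level was 71.6 ± 3.31 CPM at 24 h and 67.1 ± 4.32 CPM at 36 h (SD, n = 3 each), and the libraries of these 2 times overlapped. On stiff all 4 named genes moved the same way, with log2 fold changes of 6.35, 8.08, -3.04 and -2.46 in the order described, and the difference between the substrates was not called for any of them (edgeR adjusted p from 0.922 to 0.975). The 95% intervals of the soft minus stiff difference were -0.52 to 0.21, -0.52 to 1.6, -0.18 to 0.55 and -0.4 to 0.23 on the log2 scale.

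**Figure D1:**
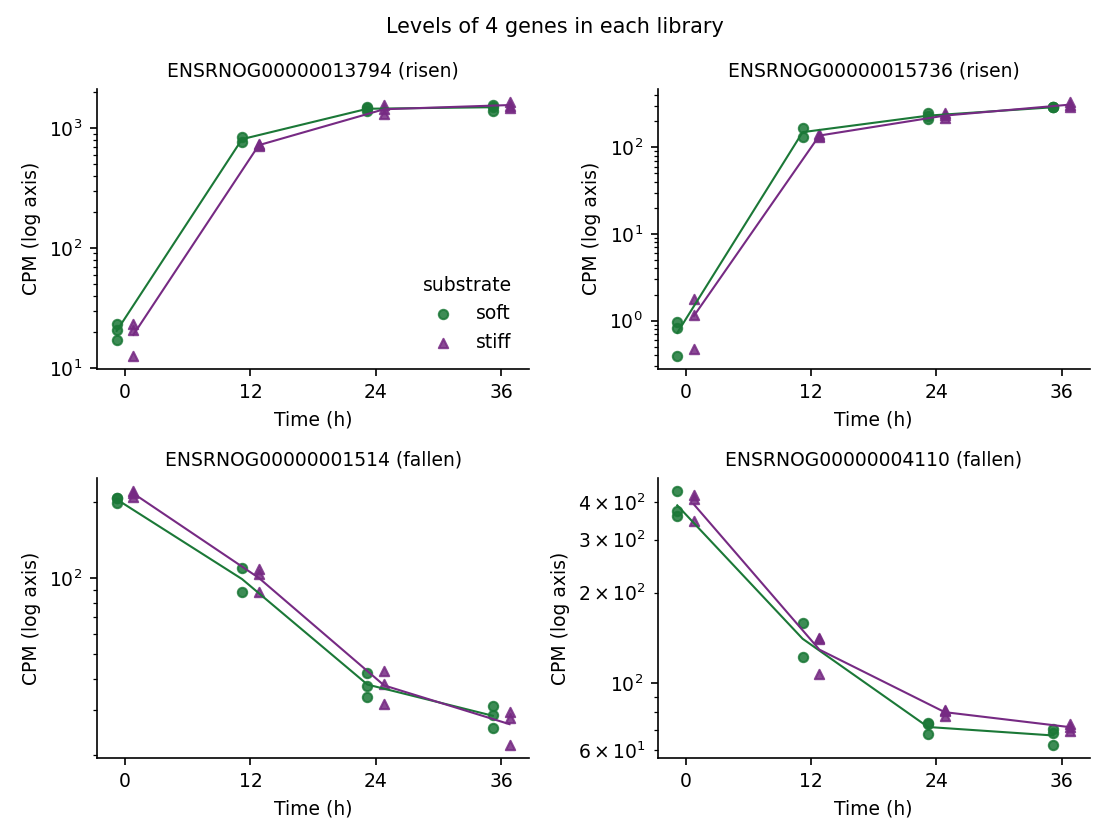
Level of the 4 named genes in each library, in CPM on a log axis, by time in h; points are libraries (3 per group, 2 for soft at 12 h), lines join group means, and soft and stiff are drawn side by side. On the log axis the risen genes covered most of their rise by 12 h, and ENSRNOG00000001514 fell in every step to 28.5 CPM at 36 h on soft, against 206 CPM at 0 h.

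Rises reached larger sizes than falls. At least 2-fold changes were made by 1424 risen genes (12% of those tested) and 1137 fallen genes (9.59%), at least 4-fold changes by 536 and 278, at least 8-fold changes by 241 and 35, and at least 16-fold changes by 131 and 8. The ratio of risen to fallen genes was 1.1 at a bound of 1.5-fold and 16.4 at 16-fold. Genes with no count at one of the times take part in the largest classes, and their fitted fold changes depend on a prior count. These genes alone were then set at the bound that a floor of 3 counts over the 3 libraries allows. Genes with any count at both times kept their fitted fold change. By this count 110 risen and 6 fallen genes were at least 16-fold changed, and the median of the risen genes stayed at 0.883.

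At bounds of 4-fold and 16-fold the same order held when genes were classed by their mean level over all 23 libraries. In the quartile of tested genes with the highest means, from 72.2 CPM upward, 94 risen and 40 fallen genes changed at least 4-fold, and 16 and 0 at least 16-fold. In the third quartile, from 26.8 to 72.1 CPM, these numbers were 65 and 58 at 4-fold, and 15 and 0 at 16-fold. At 2-fold the order was reversed in the third quartile, with 261 risen and 288 fallen genes. In each of the other quartiles risen genes were the more numerous at 2-fold. The floor of 3 counts stands for 0.24 CPM over the libraries of 36 h. As single values, the largest fall of a called gene with at least 100 CPM at 0 h was 7.49-fold, to 15.4 ± 4.27 CPM at 36 h against 120 ± 12.1 CPM at 0 h (SD, n = 3 each; log2 fold change -2.9, SE 0.176, edgeR adjusted p = 9.93e-16). Among the 83 fallen genes of at least 1000 CPM at 0 h the largest fall was 4.78-fold, to 295 ± 42.5 CPM at 36 h against 1410 ± 37.2 CPM at 0 h (SD, n = 3 each; log2 fold change -2.26, SE 0.121, edgeR adjusted p = 3.16e-16), whereas among the 33 risen genes of at least 1000 CPM at 36 h the largest rise was the 73-fold change of ENSRNOG00000013794.

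**Figure D2:**
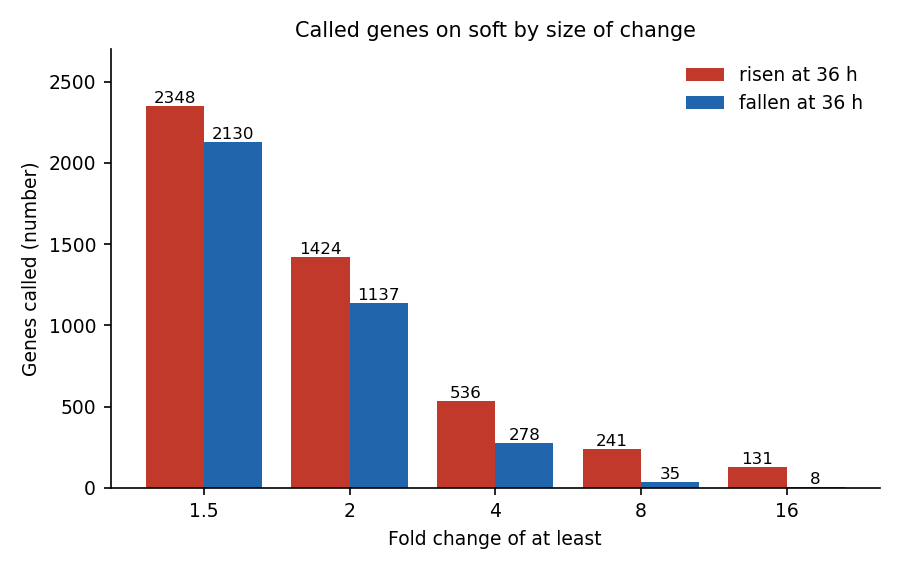
Number of genes called on soft, in each direction, whose fold change between 36 h and 0 h was at least the value on the x axis (cumulative classes). Risen genes outnumber fallen ones by 1424 to 1137 at 2-fold and by 131 to 8 at 16-fold.

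Some genes had no count at one of the 2 times, though some of them were counted at 12 h or 24 h. No count was found in any of the 3 libraries of 0 h for 33 risen genes, which had 8 to 127 counts over the libraries of 36 h (median 29). Against the floor of 3 counts they were at least 52.1-fold higher at 36 h for the most abundant of them, which reached 10.1 CPM, and the median bound was 11.9-fold. On stiff, 12 of the 33 also lacked any count at 0 h. In the other direction 2 fallen genes had no count at 36 h, with 7 and 10 counts over the libraries of 0 h, so that they were at least 2.71-fold lower at 36 h in the more abundant of them (median bound 2.3-fold). None of these genes can be called absent at this depth, since 3 counts stand for 0.195 CPM in the pooled libraries of 0 h.

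How often a gene was called depended on its level. In quartiles by mean CPM over all 23 libraries, 31.7% of genes from 0.37 to 7.74 CPM were called, 51.3% in the second quartile, 62.3% in the third and 71.5% of genes above 72.2 CPM. The median SE of the log2 fold change fell in the same order, with 0.502, 0.212, 0.138 and 0.0991. Absolute estimates grow with this error, so a 2-fold bound is not met on equal terms in different quartiles. Changes of at least 2-fold upward were called in 17% of genes of the lowest quartile and in 9.08% of the highest, and downward in 11.1% and 7.83%. These shares do not show that changes were larger in weakly expressed genes.

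**Figure D3:**
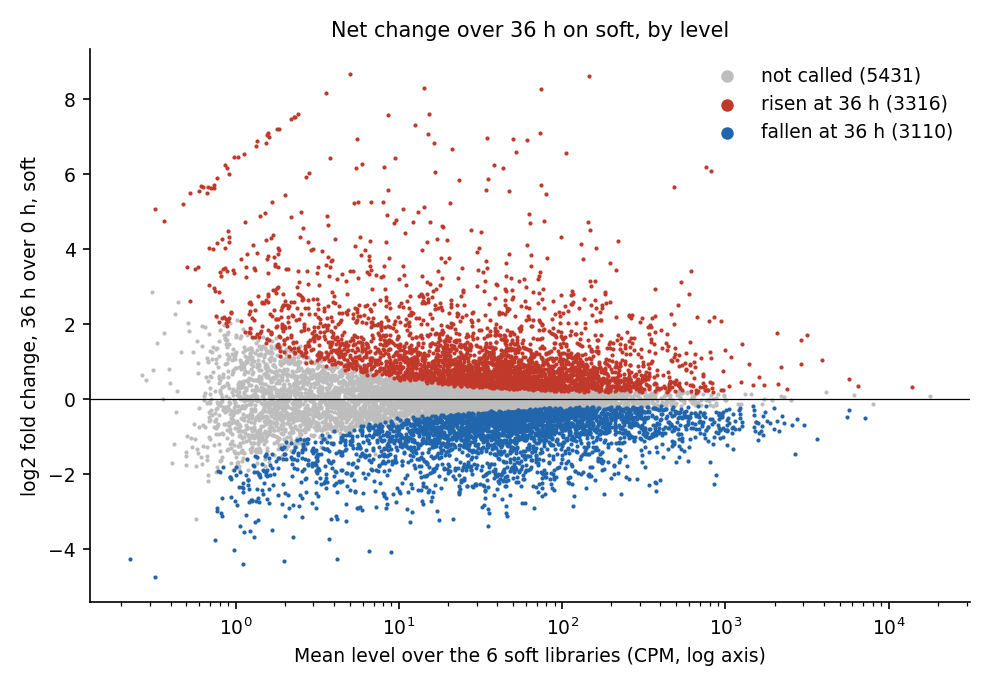
Log2 fold change of each of the 11857 tested genes on soft (36 h over 0 h) against its mean level over the 6 libraries, in CPM on a log axis; colours give the call. Calls reach smaller changes at higher levels, and the log2 fold changes run from -4.75 to 8.67.

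Of the 5431 genes that were not called, some were measured well enough to bound their change. The 95% interval of the log2 fold change lay within 1.5-fold in either direction in 2339 of them (43.1%) and within 2-fold in 3613 (66.5%). The rest were neither called nor bounded to 2-fold at this depth. Among called genes, 585 had intervals within 1.5-fold, so that part of the calls were of small changes.

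The changes moved a large part of the transcript pool. The 3316 risen genes held 40% ± 0.538 of all counts in the libraries of 36 h and 22.2% ± 0.132 in those of 0 h (SD, n = 3 each). The 3110 fallen genes held 30.6% ± 0.783 at 36 h and 49.3% ± 0.434 at 0 h, and the genes not called 29.3% ± 0.287 and 28.5% ± 0.327. These genes were chosen on the same libraries, so the shares are a description. In the stiff libraries, whose levels were not in that contrast but which shared the filter and the estimate of the spread behind the calls, the risen genes held 40% ± 0.766 at 36 h and 22.3% ± 0.278 at 0 h, and the fallen genes 30.6% ± 1.04 and 49.1% ± 0.499 (SD, n = 3 each). The gain was spread over many genes: the 10 largest gains carried 13.5% of the 17.8 percentage points gained, the 100 largest 38.4%, and 206 genes carried 50%. The losses were spread in the same manner, with 8.49% in the 10 largest, 34.4% in the 100 largest and 50% in 224 genes.

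The most abundant transcripts were largely the same at both times. Of the 10 genes with the highest mean level at 36 h, from 4820 to 18300 CPM, 8 were also among the 10 highest at 0 h, and their log2 fold changes ran from -0.487 to 1.72. Of the 100 highest genes at 36 h, 67 were also among the 100 highest at 0 h. Among the 100 highest at 36 h, 40 were risen and 40 fallen, and among the 100 highest at 0 h, 13 were risen and 73 fallen. Measures of how concentrated the counts were did not point one way. The genes that together make up 50% of a library's counts numbered 688 ± 14 at 36 h and 626 ± 5.69 at 0 h (SD, n = 3 each; exact permutation test, two-sided p = 0.1, the smallest that 3 against 3 allows). The 100 highest genes of a library held 22.8% ± 0.306 of its counts at 36 h and 23.5% ± 0.379 at 0 h (exact permutation p = 0.1), whereas the 10 highest held 8.47% ± 0.262 and 7.99% ± 0.285 (exact permutation p = 0.2; SD, n = 3 each).

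Most of the net change on soft was in place by 24 h. The 2 soft libraries of 12 h stood apart: the 573 (Rd1) and 608 (Rd3) genes that made up 50% of their counts were the fewest among the 23 libraries, and the TMM factor of Rd1, 0.933, was the lowest. The part of this in values at 12 h was not tested beyond leaving each of them out. In the 1424 genes risen at least 2-fold, the median log2 level above 0 h was 0.602 at 12 h, 1.286 at 24 h and 1.54 at 36 h, while over all tested genes it was 0.027, 0.007 and 0.017. In the 1137 genes fallen at least 2-fold it was -0.326, -1.179 and -1.451. As a share of a gene's own net change on the log2 scale, the median reached by 12 h was 37.7% in the risen and 22.5% in the fallen genes, and by 24 h 82.4% and 78.9%. These shares use the same 0 h and 36 h libraries that chose the genes.

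The group means of genes with the same net direction were ordered in different ways along the course. Of the 1424 risen genes, 805 (56.5%) had rising means in all 3 steps, 250 (17.6%) were at or under their 0 h level at 12 h, 103 (7.23%) were above their 36 h level at 12 h, and 307 (21.6%) were higher at 24 h than at 36 h. Of the 1137 fallen genes, 574 (50.5%) fell in all 3 steps, 266 (23.4%) were above their 0 h level at 12 h and 212 (18.6%) were lower at 24 h than at 36 h. Single genes were not tested against these classes, and the soft means of 12 h come from 2 libraries. How often noise in the means alone would give such orders was not tested.

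**Figure D4:**
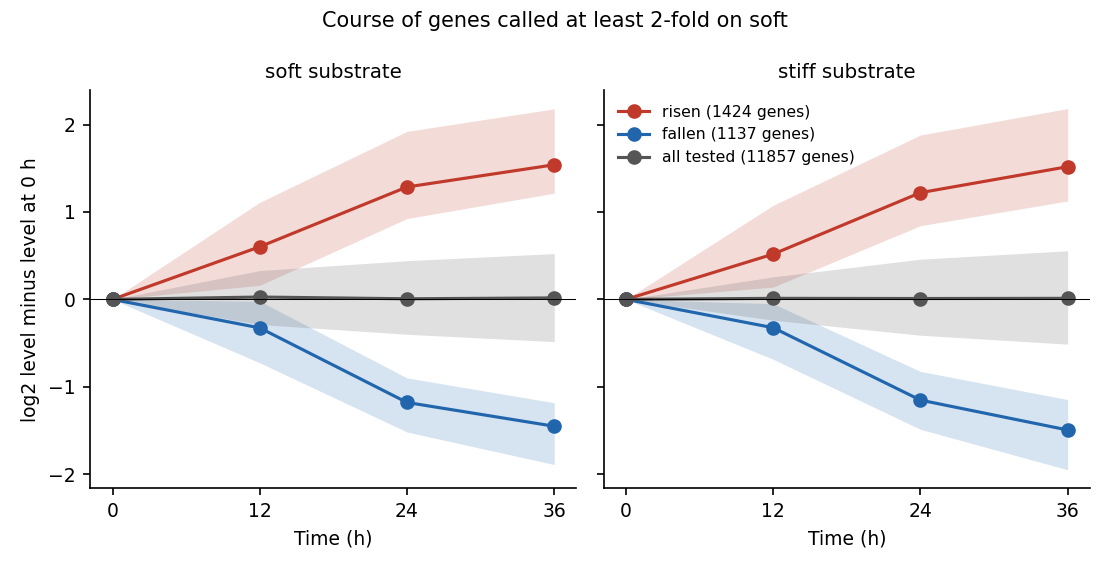
Median log2 level relative to 0 h (points and lines) and interquartile range over genes (bands) at 0, 12, 24 and 36 h, for genes called at least 2-fold risen or fallen on soft and for all tested genes; soft libraries on the left, stiff libraries on the right. On soft the medians at 12 h are 0.602 for risen and -0.326 for fallen genes, and on stiff 0.518 and -0.324.

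To read the course in genes not chosen by the soft contrast, the 1531 genes risen and 1324 fallen at least 2-fold on stiff (12.9% and 11.2% of those tested) were followed on soft. The soft libraries still shared the filter and the estimate of the spread behind those calls. The risen ones had median steps on soft of 0.562 from 0 h to 12 h, 0.662 from 12 h to 24 h and 0.209 from 24 h to 36 h, on the log2 scale. For the fallen ones the falls were 0.319, 0.724 and 0.22. The step from 12 h to 24 h was the largest of the 3 in 46.9% of the risen and 59.1% of the fallen genes, the first step in 43.8% and 31%, and the last in 9.27% and 9.89%.

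The step from 12 h to 24 h on soft shares no library with the comparison of 36 h and 0 h, and its direction could be set against the net change. Both comparisons still shared the filter and the estimate of the spread behind the calls. In that step 38.1% of all tested genes were called, 19% higher at 24 h and 19.1% lower, and 5.99% and 4.23% were called with at least a 2-fold change (edgeR, adjusted p under 0.05; with unscaled totals the split was 2774 higher and 1752 lower in place of 2250 and 2269). Without the 12 h library Rd1 3216 genes were called in this step, and without Rd3 3413, in place of 4519. Of the 3316 genes risen over 36 h, 1562 (47.1%) were called higher at 24 h than at 12 h and 49 (1.48%) lower. Of the 3110 fallen genes, 1747 (56.2%) were called lower and 108 (3.47%) higher. The 5431 genes without a net call were called higher in 10.7% and lower in 8.71% of cases.

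The net change on soft was close to that on stiff. On stiff 6819 genes were called over 36 h (57.5% of those tested), 3466 higher at 36 h (29.2%) and 3353 lower (28.3%). Of the genes risen on soft, 2850 (85.9%) were called risen on stiff, and of those fallen on soft 2727 (87.7%) were called fallen. For the genes risen on soft the median log2 fold change was 0.883 on soft beside 0.852 on stiff, and for those fallen on soft -0.798 beside -0.794. Chosen on stiff instead, the risen genes were at a median of 0.798 on soft beside 0.897 on stiff, and the fallen ones at -0.736 beside -0.826. The larger median lay each time on the substrate that had chosen the genes. Across genes, which are not independent replicates, Pearson's r between the log2 fold changes of the substrates was 0.904 and Spearman's rho 0.896, over 11857 genes from 12 libraries.

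Genes called on only one substrate did not pass a test of the difference between substrates. There were 847 genes called on soft and not on stiff, with median absolute log2 fold changes of 0.569 on soft and 0.237 on stiff, and 92.2% of them had the same sign on both. For the 1240 genes called on stiff and not on soft the medians were 0.265 (soft) and 0.617 (stiff), with the same sign in 91.9%. The difference of the net changes, tested in 1 contrast, was called in 0 of the 847 and 0 of the 1240 genes by edgeR, and in 0 and 0 by DESeq2. At an unadjusted p under 0.05, edgeR gave 128 and 177 of these genes, beside 697 of the 11857 tested genes (5.88%). The 847 and 1240 genes were chosen by unlike calls on the same libraries, which by itself favours a difference.

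Over all tested genes this difference was called in 1 gene, or 0.00843% (edgeR quasi-likelihood test; 697 genes, 5.88%, at an unadjusted p under 0.05; DESeq2 called 2). That gene stood at 102, 115 and 99.7 CPM on soft at 36 h, against 73.3, 96.8 and 87.2 CPM at 0 h. On stiff it stood at 54.4, 63.8 and 60.6 CPM at 36 h, against 85.3, 98.8 and 86 CPM at 0 h. The libraries of the 2 times did not overlap on either substrate, and the gene was higher at 36 h on soft and lower on stiff. Its log2 fold change was 0.3 on soft (adjusted p = 0.0167) and -0.59 on stiff (adjusted p = 2.28e-05), and the difference was 0.9 (SE 0.153, adjusted p = 0.0195, all by edgeR). The call of the difference was lost, with 0 genes called, without soft 0 h Rd1 or Rd3, soft 36 h Rd2, stiff 0 h Rd2, or stiff 36 h Rd1 or Rd3, and also without the 12 h libraries.

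For most other genes the data bound the difference. The 95% interval of the soft minus stiff difference lay within 2-fold in either direction in 8070 genes (68.1%), and the median absolute difference was 0.182 on the log2 scale beside a median SE of 0.238. For the remaining genes a difference of 2-fold between the substrates was neither detected nor bounded at this depth.

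**Figure D5:**
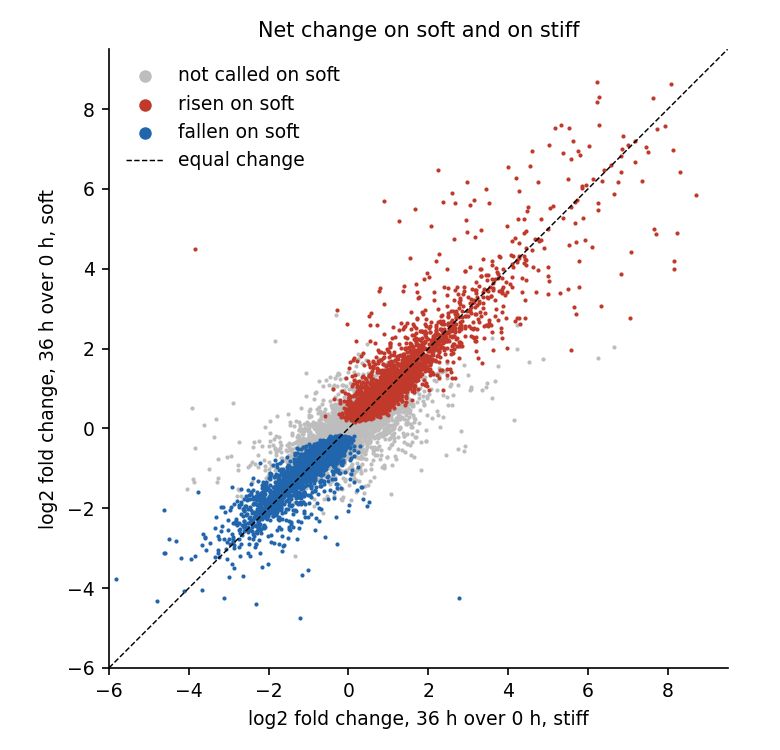
Log2 fold change between 36 h and 0 h on soft (y axis) and on stiff (x axis) for each of the 11857 tested genes, coloured by the call on soft; the dashed line marks equal change. Points follow the line (Pearson's r 0.904 across genes).

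Read library by library, the course was alike in the 3 numbered pairs of soft libraries. The median log2 fold change of the risen genes was 0.879, 0.843 and 0.845 between the libraries of 36 h and 0 h numbered Rd1, Rd2 and Rd3, and that of the fallen genes -0.813, -0.779 and -0.779. The genes were called on these same libraries. Over all tested genes the pairs correlated with Pearson's r of 0.838 (Rd1 and Rd2), 0.784 (Rd1 and Rd3) and 0.765 (Rd2 and Rd3), and the lower values involve Rd3, whose libraries were the shallowest of each time. The part of depth in this was not tested.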

How the data were processed

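The authors deposited whole-number counts per Ensembl rat gene, not normalized, with 1 column per library. Per the labels' protocols, total RNA was made into QuantSeq FWD libraries, a 3' tag method in which gene length has little influence on a count. HISAT2 2.1.0, HTSeq, FastQC and build rn6 stand in the submitters' processing notes. The annotation release, strand setting and trimming were not found in these sources, so overlapping genes and near-identical copies may share reads. Totals ran from 2462360 to 6811157 counts.

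Tests used edgeR 4.0.16 (R 4.3.3), with a quasi-likelihood model of 8 group means fitted once to the 23 libraries, TMM factors and filterByExpr (minimum count 10, minimum total 15), which kept 11857 of 32883 genes. Contrasts were 36 h minus 0 h on soft and on stiff, their difference, and 24 h minus 12 h on soft, the last added after the data were examined. A gene was called at a Benjamini-Hochberg adjusted p under 0.05 over all tested genes. SEs come from the fitted weights and the quasi-likelihood variance. CPM use TMM-scaled totals, and course levels are group means of log2 CPM with a prior count of 2. Every pair of libraries of a group, over all 8 groups, differed by more than sampling noise (chi-square per degree of freedom 2.42 to 9.11 over genes with at least 20 counts). Scripts were tested on simulated data. Figures were drawn with matplotlib 3.10.9.

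The comparison and 31 lists of gene symbols were chosen with earlier results of these data known. The lists could not be used, as no identifier could be paired with a symbol, and no sequence is shown for the same reason. The rule for that case named the 2 risen and the 2 fallen identifiers with the smallest p on soft. Alternatives were RLE and upper-quartile factors, unscaled totals, no filter, DESeq2 1.42.0, a filter at 5 CPM in 3 libraries, a block for the replicate number, a fit of the compared groups alone, no 12 h libraries, thinning to the smallest total, and each compared library left out.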

Additional observations from a re-analysis of the deposited data

Results flagged for a closer look

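The net change over 36 h differed between the substrates in 1 gene, which was picked out because the test of the difference itself was called. The difference was 0.9 on the log2 scale, soft minus stiff (SE 0.153, edgeR quasi-likelihood test, adjusted p = 0.0195). The gene was higher at 36 h in 3 of 3 soft libraries and lower in 3 of 3 stiff libraries, in each case beyond all libraries of 0 h. On soft its level was 73.3 and 64.7 CPM at 12 h and 59.6, 73.4 and 60.6 CPM at 24 h, below all 3 libraries of 36 h. Of 12 fits that left out 1 library each, 6 called no gene. No cause was tested.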

How the results depend on the processing

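The count of 6426 genes called on soft was within 1.5 times itself under all 16 alternatives, from 5840 to 6666, with 49.6% to 54.1% of calls higher at 36 h. At least 5655 of the 6426 genes were called under each. Leaving out 1 library gave 5840 to 6098, and thinning to the smallest total 5927. On stiff 16 alternatives gave 6140 to 7029, and leaving out 1 library 6181 to 6500. The step from 12 h to 24 h on soft gave 3216 to 4749 under 14 alternatives and 3216 to 4206 without 1 library, where the fits with a lone soft 12 h library assume that it varies like the other groups. The 4 named genes kept their direction and their call under all 16 alternatives each. They were named for the smallest p on these libraries, so a kept call says little. In the order described, their log2 fold changes ran from 6.07 to 6.31, 8.34 to 8.82, -2.91 to -2.78 and -2.69 to -2.45.

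The count of 1 gene for the difference between substrates was not stable. It was 23 with no filter on low counts, 2 with DESeq2, 2 in the fit of the compared groups alone, 2 after thinning and 0 without the 12 h libraries, and 0 to 1 without 1 library. The cause was not tested.

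By the labels, samples share only a number. Same-numbered libraries of 36 h and 0 h deviated from their group means with correlations of -0.0497 to 0.0475 on soft. There, 1 of the 3 soft libraries of 36 h correlated best with its own number. On stiff these correlations were 0.0234 to 0.0274, and each stiff library of 36 h correlated best with its own number. Whether the numbers mark pairs cannot be told from these values. With the replicate number as a block, 6666 genes were called on soft, 7029 on stiff, 4749 in the step from 12 h to 24 h and 1 for the difference. Depth limits weakly expressed genes most, and the fold changes of genes with fewer than about 10 counts at one time are imprecise. Floors cover counting error only.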

Other observations

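Besides the gene whose difference was called, 1 other gene was called in opposite directions on the substrates, fallen on soft and risen on stiff. It rests on few reads: 0, 0 and 0 counts at 36 h on soft, against 2, 3 and 2 at 0 h, and 7, 1 and 8 counts at 36 h on stiff, against 2, 0 and 1 at 0 h. The difference between the substrates was not called for it (edgeR adjusted p = 0.618).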
